A study of Mus musculus with 9 samples.

Results

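The nuclear genes of respiratory complexes III and IV, cytochrome c and ATP synthase were followed in tibialis anterior (TA) of the left leg, the mostly fast muscle in front of the shin. The members were all genes of the deposited table whose symbol began with Uqcr, Cox4i, Cox5, Cox6, Cox7, Cox8 or Atp5, together with Cyc1 and Cycs. Symbols marked as pseudogenes by "-ps" (12 of 58) were dropped, and none ended in "rt". This left 46 of 56805 genes, of which 9 belonged to complex III, 1 was cytochrome c, 19 belonged to complex IV and 17 to ATP synthase. Cox6c2 was kept by this rule although GENCODE annotates it as a processed pseudogene, and the other 45 are annotated as protein coding.

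The muscles came from 13-month-old male mice labelled Svil-KO, Svil-Mut and wild type (WT), 3 mice per genotype and 1 RNA-seq library per mouse. Svil encodes supervillin, which links the membrane to actin and myosin, and the series asks how altered Svil affects insulin action, glucose metabolism and muscle function. What either allele alters in the gene, and the background strain, are not stated in the labels. Svil had 7402, 6746 and 6656 normalized counts in Svil-KO muscle, 4615, 3939 and 4582 in Svil-Mut muscle, and 8686, 9373 and 8407 in WT muscle. The log2 fold change against WT was -0.35 in Svil-KO (limma adjusted p = 0.997) and -1.01 in Svil-Mut (limma adjusted p = 0.000941). The whole-gene count does not show whether the remaining transcript was intact. Each library held 36234428 to 48762188 reads, recovered from the table as described under the processing.

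Complex III passes electrons from ubiquinol to cytochrome c, a small mobile carrier, and complex IV passes them from cytochrome c to oxygen. Both pump protons, and ATP synthase uses the resulting gradient to make ATP. Most of their subunits are encoded in the nucleus, and a few in the mitochondrial genome. Complex IV is known for tissue isoforms: Cox6a2, Cox7a1 and Cox8b are the forms of heart and skeletal muscle, while Cox6a1, Cox7a2 and Cox8a are found in most tissues. These complexes are abundant in slow and oxidative fibres, and TA has few slow fibres.

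Promoters are shown for 2 of these isoform pairs, those of Cox8 and Cox7a, as no window was found for Cox6a2. Uqcr11 is shown as well, because its window holds the letters known as sites of both NRF1 and GABP. Windows of Atp5k, Atp5l and Cox6a1, not shown, also hold both. The windows run from 250 bases before to 50 bases after the gene start and are RefSeq sequences of GRCm38.p6, written 5′ to 3′ on the strand of the gene. Capitals mark the letters searched on both strands: GCGCATGC for NRF1, CCGGAAG for the ETS factor GABP, GGGCGG for Sp1, AAGGTCA for the ERR half-site, CAGCTG for the E-box bound by MyoD, and TATAAA for the TATA box. NRF1, GABP and ERR are known regulators of respiratory chain genes. Cox8b lies at chr7:140900397-140900696 (minus strand), Cox8a at chr19:7217567-7217866 (minus strand), Cox7a1 at chr7:30183921-30184220 (plus strand), Cox7a2 at chr9:79759804-79760103 (minus strand) and Uqcr11 at chr10:80406772-80407071 (minus strand).
Cox8b: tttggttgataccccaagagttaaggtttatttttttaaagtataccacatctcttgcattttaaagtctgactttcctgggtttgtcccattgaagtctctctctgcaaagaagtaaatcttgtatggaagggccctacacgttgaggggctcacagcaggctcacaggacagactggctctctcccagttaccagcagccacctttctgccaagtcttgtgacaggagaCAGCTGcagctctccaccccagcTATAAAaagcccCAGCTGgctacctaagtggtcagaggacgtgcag
Cox8a: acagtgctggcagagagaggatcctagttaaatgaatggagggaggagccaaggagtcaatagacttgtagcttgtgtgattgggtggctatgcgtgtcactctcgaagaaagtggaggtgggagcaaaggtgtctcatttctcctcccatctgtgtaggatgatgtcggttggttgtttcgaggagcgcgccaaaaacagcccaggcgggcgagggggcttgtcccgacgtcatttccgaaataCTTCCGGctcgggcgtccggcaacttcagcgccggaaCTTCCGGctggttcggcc
Cox7a1: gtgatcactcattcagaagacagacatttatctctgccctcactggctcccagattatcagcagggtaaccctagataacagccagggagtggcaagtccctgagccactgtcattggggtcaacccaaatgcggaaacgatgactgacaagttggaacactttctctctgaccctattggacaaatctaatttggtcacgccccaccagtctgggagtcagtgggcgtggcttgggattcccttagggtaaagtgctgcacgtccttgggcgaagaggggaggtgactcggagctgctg
Cox7a2: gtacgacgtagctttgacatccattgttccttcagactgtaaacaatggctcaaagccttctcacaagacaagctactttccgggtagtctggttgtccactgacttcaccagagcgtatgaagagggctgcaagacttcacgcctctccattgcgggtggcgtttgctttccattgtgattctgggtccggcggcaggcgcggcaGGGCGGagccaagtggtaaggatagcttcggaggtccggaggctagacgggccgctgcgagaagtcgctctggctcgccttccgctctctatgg
Uqcr11: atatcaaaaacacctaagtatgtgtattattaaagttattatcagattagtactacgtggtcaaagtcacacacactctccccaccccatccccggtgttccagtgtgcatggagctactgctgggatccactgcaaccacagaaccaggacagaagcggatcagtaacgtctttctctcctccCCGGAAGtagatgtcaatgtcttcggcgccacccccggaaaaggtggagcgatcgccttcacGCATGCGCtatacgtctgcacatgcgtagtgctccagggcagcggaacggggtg
The Cox8b window held 2 E-box matches and 1 TATAAA match. The TATAAA match and 1 of these E-box matches lay after the annotated gene start, at offsets of 4 and 16 bases. The Cox8a window held 2 ETS matches. None of the 6 letter strings was found in the Cox7a1 window, and the Cox7a2 window held 1 Sp1 match. The Uqcr11 window held 1 NRF1 and 1 ETS match.

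RefSeq windows were found for 34 of the 46 members, 37 windows in all, and there were 32851 windows over all genes. Cox6a2, Cox4i1, Cox4i2 and Uqcrq were among the members without a window. The NRF1 letters were found in 18.9% of the members' windows and 2.71% of all windows, in Atp5g2, Atp5k, Atp5l, Cox6a1, Cycs, Uqcr11 and Uqcrc1. For the ETS letters the shares were 29.7% and 8.86%, and for the ERR half-site 10.8% and 4.72%. Sp1 letters were about as common among the members (35.1%) as among all windows (35.7%). E-boxes stood in 5.41% of the members' windows, those of Atp5b and Cox8b, and in 16.3% of all windows, and TATAAA in 10.8% and 13.6%. These matches are descriptions of the letters in each window, and none of the factors was measured at these sites. Some strings overlap in 1 window, as the 2 NRF1 matches of Cox6a1 do.

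The members took 3.22% ± 0.10 of all counts in Svil-KO, 2.82% ± 0.18 in Svil-Mut and 3.30% ± 0.18 in WT (SD, n = 3 each). ATP synthase held the largest part, 1.76% ± 0.060 in Svil-KO, 1.53% ± 0.10 in Svil-Mut and 1.76% ± 0.082 in WT (SD, n = 3 each). Complex IV followed with 0.794% ± 0.024 in Svil-KO, 0.741% ± 0.039 in Svil-Mut and 0.857% ± 0.058 in WT (SD, n = 3 each). Complex III held 0.642% ± 0.023 in Svil-KO, 0.531% ± 0.050 in Svil-Mut and 0.655% ± 0.041 in WT (SD, n = 3 each).

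Levels of different genes, here and in the isoform pairs, were compared per kilobase of transcript, a rough scale that rests on the annotated lengths. How evenly short and long transcripts were recovered was not tested. On this scale Cox6a2 was the most abundant member in WT with 117794 ± 5000.4 normalized counts per kb (SD, n = 3), and in Svil-Mut with 118398 ± 16036. In Svil-KO it had 102779 ± 8220.3 and Atp5b, the catalytic beta subunit of ATP synthase, had 111215 ± 2699. Atp5b in WT had 106618 ± 3573 normalized counts per kb. The WT libraries of Cox6a2 lay above those of Atp5b, and Cox8b came next at 89424 ± 4590.1. Behind them in WT stood Cox6c (71411), Cox4i1 (68452), Uqcrq (63087) and Atp5g3 (59938), whose neighbours in this order differed by less than their spread or by little more. At the other end stood the general isoforms Cox8a (3308) and Cox6a1 (2776), the supercomplex assembly subunit Cox7a2l (1663), and Cox4i2 (224). Cycs, with a long transcript of 3123 bases, had 2899 normalized counts per kb in WT, which rests on the annotated length.

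**Figure D1:**
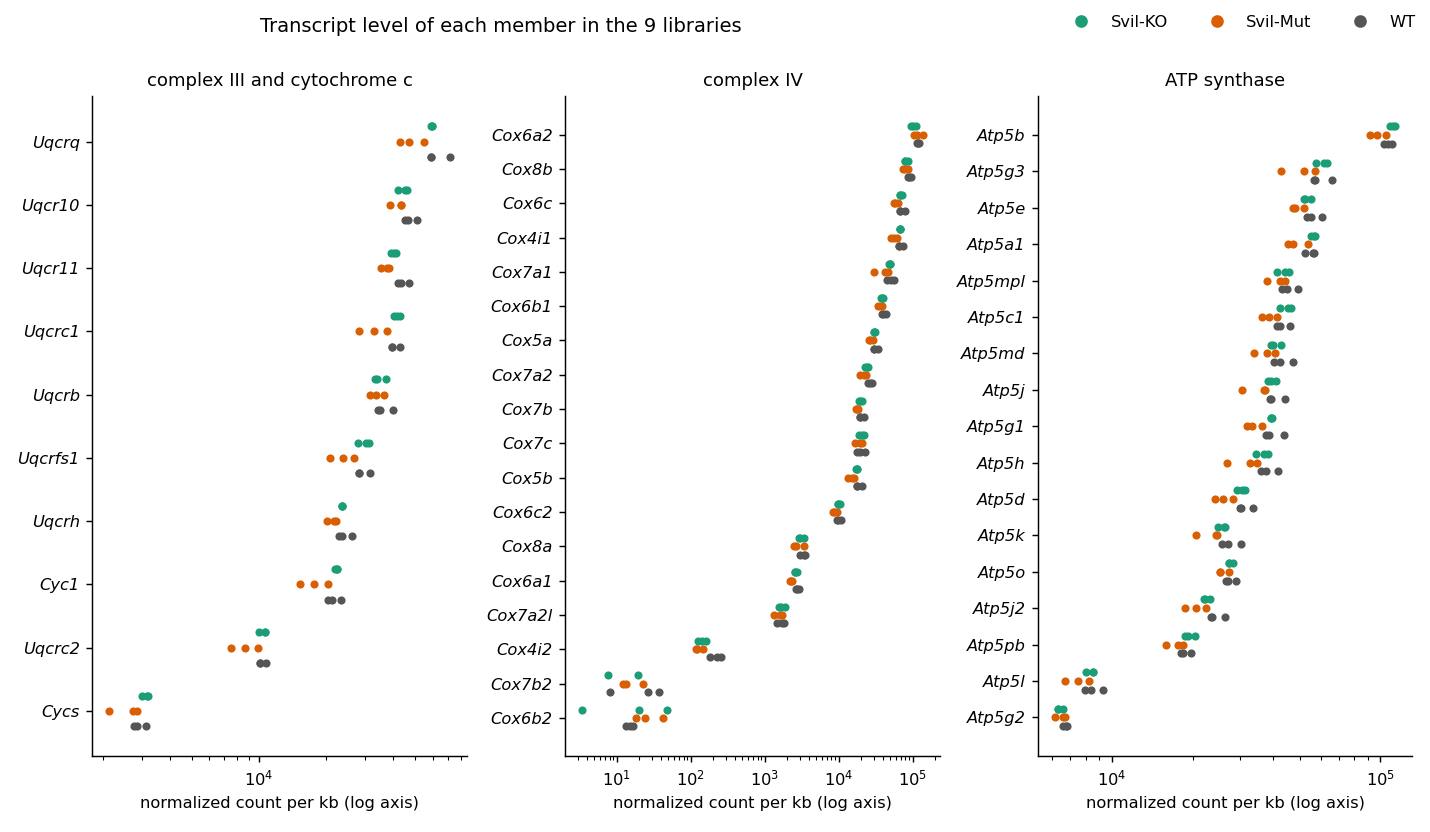
Normalized counts per kilobase of transcript (log axis) of each member in each of the 9 libraries, by complex, with Svil-KO, Svil-Mut and WT libraries in separate rows of points. Most members span a narrow range across genotypes, the Svil-Mut points of complex III lie to the left of the WT points except for Uqcrb, and Cox4i2, Cox7b2 and Cox6b2 lie far below the rest of complex IV; Cox8c, at 0 throughout, and the Cox7b2 value of 0 in Svil-KO replicate 1 are not drawn.

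Subunit isoforms known from testis were near the floor. Cox8c was at 0 in all 9 libraries, where a count of 0 allows up to 3 reads, or 2.39 to 3.30 normalized counts per library (counting error only). Cox6b2 reached at most 22.0 and Cox7b2 at most 20.2 normalized counts in any library, and Cyct, the testis cytochrome c, was at 0 in all libraries. Cox6b2 had the log2 fold change farthest above 0 in Svil-Mut against WT (0.76 ± 0.84 SE). Its libraries had 22.0, 9.17 and 1.59 normalized counts in Svil-KO, 19.3, 8.59 and 11.4 in Svil-Mut, and 7.66, 7.08 and 6.11 in WT.

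Of the 46 members, 45 reached 10 normalized counts in at least 3 libraries and were tested, Cox8c being the exception. In Svil-Mut against WT, none of the 45 passed an adjusted p under 0.05 (0.0393% of the 15279 genes tested did), and 44 of the 45 log2 fold changes were below 0, against 50.7% of all genes. The median was -0.21 among the members, about -13.6% on the linear scale, and -0.0046 among all genes. For 27 members the unadjusted p of limma was under 0.05, each with a lower level in Svil-Mut (5.32% of all genes were lower at that p). In 23 members all Svil-Mut libraries lay below all WT libraries (6.81% of all genes). The near-floor Cox6b2 was the single member with all Svil-Mut libraries above all WT libraries, as were 1090 of the 15279 genes. The smallest adjusted p among the members was 0.283, and it was 0.0429 by DESeq2 and 0.131 to 0.587 under the other alternatives. EdgeR's quasi-likelihood test on the recovered reads called 0 members, and DESeq2 called 3, which were Cox5b (adjusted p = 0.0429), Uqcr11 (adjusted p = 0.0450) and Uqcrq (adjusted p = 0.0476), each lower in Svil-Mut. Over all genes tested in this comparison, edgeR called 6 of 15279 and DESeq2 called 176 of 15264. The count of members at an unadjusted p under 0.05 was 11 without WT replicate 4, 15 without Svil-Mut replicate 4 and 12 without the variance trend. Genes lower at that p numbered 567 of 15120, 879 of 15089 and 674 of 15279 in the same fits, and 813 in the main fit. The non-overlapping count was 36 without Svil-Mut replicate 1. Leaving out a library can only keep or raise that count, and the matching share of all genes was not counted. Muscle RNA is a mixture, and fewer fibres of a type cannot be told apart from less RNA per fibre.

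**Figure D2:**
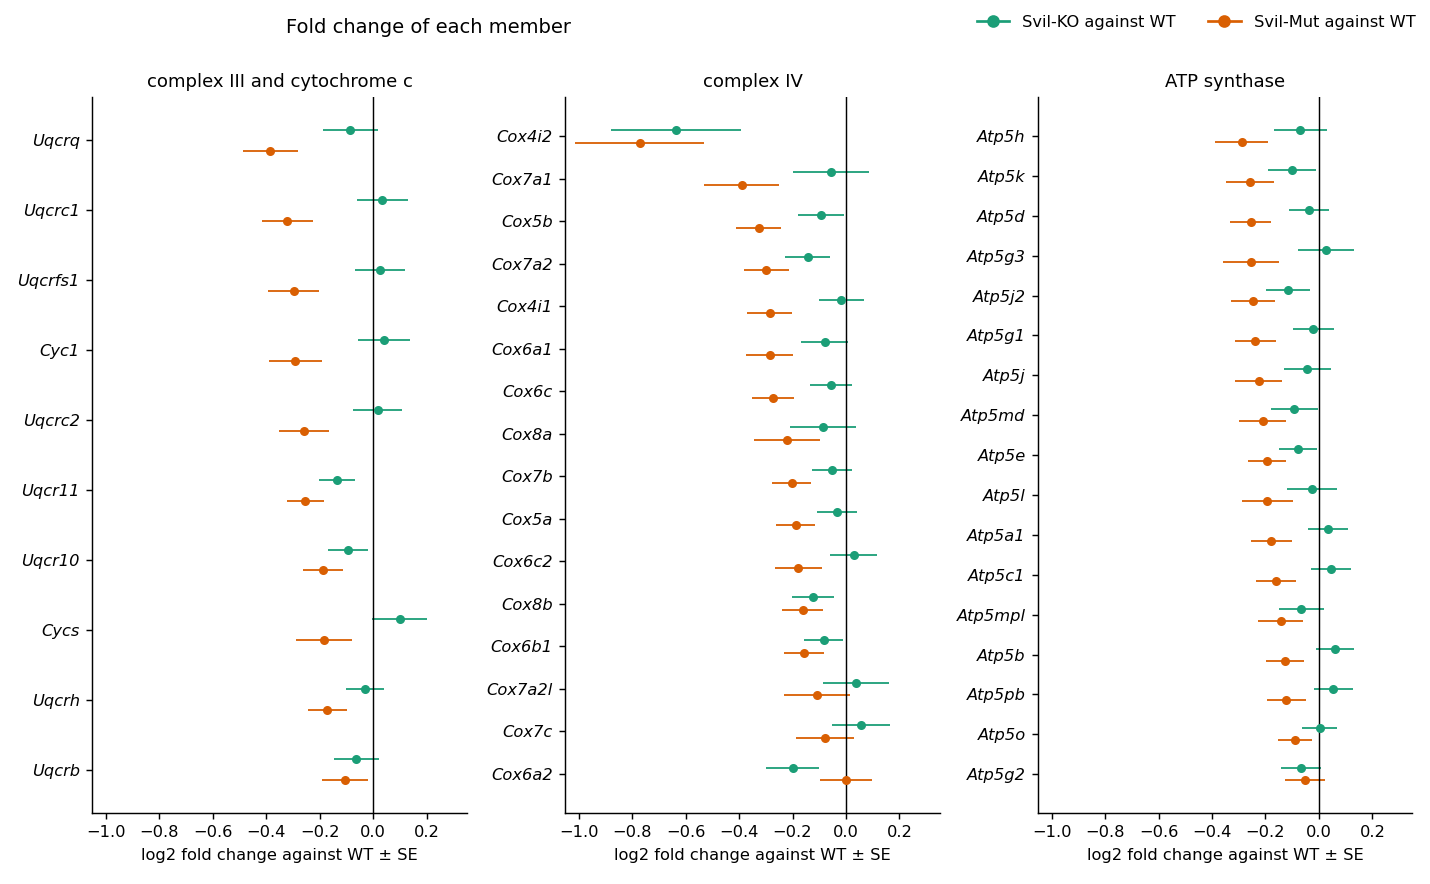
Log2 fold change against WT with its standard error (horizontal axis) for the 43 members that reached 100 normalized counts, by complex, Svil-KO above Svil-Mut in each row. The Svil-Mut values of these 43 members all lie at or below 0, with a median of -0.21, and the Svil-KO values lie on both sides of 0, with a median of -0.053.

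Complex III was the complex with the lowest median in Svil-Mut against WT, -0.26 over its 9 genes, all of them below 0. In 8 of the 9 the Svil-Mut libraries lay below all WT libraries, and 8 had an unadjusted p under 0.05. Uqcrb was the exception in both (log2 fold change -0.11). Relative to the WT mean, the medians of complex III, complex IV and ATP synthase were -0.12, -0.11 and -0.11 in Svil-Mut replicate 1. They were -0.25, -0.24 and -0.18 in Svil-Mut replicate 2, and -0.46, -0.26 and -0.32 in Svil-Mut replicate 4. The lower median of complex III thus came mostly from replicate 4. Uqcrq, a small subunit near the ubiquinone site, is encoded on GRCm38 at chr11:53427922-53430831. It had 24060.3, 23789 and 24141 normalized counts in Svil-KO, 22328, 19109 and 17351 in Svil-Mut, and 23818, 23907 and 28926 in WT. All Svil-Mut libraries were lower than the others, the Svil-KO libraries were close to each other, and WT replicate 4 stood above its group. The log2 fold change was -0.38 ± 0.10 SE in Svil-Mut against WT (limma unadjusted p = 0.00326, adjusted p = 0.283). Uqcr11, another small subunit, had 18346, 17860.3 and 17353 in Svil-KO, 16979, 16723 and 15685 in Svil-Mut, and 18636, 19327 and 20936 in WT. Here the 3 genotypes formed 3 groups without overlap, and the log2 fold change was -0.14 ± 0.068 SE in Svil-KO (adjusted p = 0.997) and -0.25 ± 0.068 SE in Svil-Mut (adjusted p = 0.292), both against WT.

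The larger complex III genes gave a similar picture with a wider spread in Svil-Mut. Uqcrc1, a core subunit of the matrix side, had 68351, 66852 and 71148 normalized counts in Svil-KO, 61764, 54371 and 46263 in Svil-Mut, and 65507, 65473 and 70534 in WT. Its log2 fold change was -0.32 ± 0.096 SE in Svil-Mut against WT (adjusted p = 0.330) and 0.03 in Svil-KO against WT (adjusted p = 0.997). Uqcrfs1, the Rieske iron-sulfur protein that takes the electron from ubiquinol, had 41040.2, 37691 and 42379.9 in Svil-KO, 36343, 32426 and 28409 in Svil-Mut, and 38113, 38148 and 42720.5 in WT (log2 fold change -0.30 in Svil-Mut against WT, adjusted p = 0.350). Cyc1, the cytochrome c1 that hands it on, had 33251, 34148 and 34035 in Svil-KO, 30990.2, 26826 and 23307 in Svil-Mut, and 32129, 31008 and 35606 in WT (log2 fold change -0.29 in Svil-Mut against WT, adjusted p = 0.376). In all 3 genes the Svil-Mut libraries lay below both other genotypes and Svil-Mut replicate 4 was the lowest. Uqcr10, a small subunit, had 20076, 19535 and 18251 in Svil-KO, 18772, 18709 and 16824 in Svil-Mut, and 20235, 19493 and 22072 in WT. Its Svil-KO libraries overlapped both other genotypes (log2 fold change -0.09 in Svil-KO and -0.19 in Svil-Mut against WT). Uqcrc2 (-0.26) and Uqcrh (-0.17) had values in the same range in Svil-Mut against WT.

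Cycs, which encodes the somatic cytochrome c, had 9934, 9309 and 9821 normalized counts in Svil-KO, 8871, 8520.2 and 6682 in Svil-Mut, and 8869, 8579.5 and 9715 in WT. The Svil-Mut and WT libraries overlapped (log2 fold change -0.18 ± 0.10 SE, adjusted p = 0.605), and so did those of Svil-KO and WT (0.10 ± 0.10 SE, adjusted p = 0.997). The Svil-KO libraries lay above the Svil-Mut libraries, at a log2 fold change of 0.28 (adjusted p = 0.412).

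Among the 18 tested complex IV genes, 17 had log2 fold changes below 0 in Svil-Mut against WT, with a median of -0.21. Of these, 9 had an unadjusted p under 0.05 and 8 had no overlap between the genotypes. Cox5b, a subunit of the matrix side (GRCm38 chr1:36691449-36693681), had the smallest p of all members. It had 15445, 14977 and 15178 normalized counts in Svil-KO, 14024, 13268 and 11618 in Svil-Mut, and 15545, 15484 and 17718 in WT. The 3 genotypes did not overlap, with Svil-KO just under WT (log2 fold change -0.09) and Svil-Mut under both (-0.33 ± 0.085 SE against WT, limma unadjusted p = 0.00276, adjusted p = 0.283). Cox4i1, the main form of the subunit through which ATP inhibits the enzyme, had 49854, 50217 and 50860.0 in Svil-KO, 46323, 41553 and 37845 in Svil-Mut, and 49156, 48469 and 55366 in WT (log2 fold change -0.29 in Svil-Mut against WT, adjusted p = 0.326). Cox6c, a small membrane subunit, had 35749, 33773 and 33842 in Svil-KO, 31628, 28869 and 28466 in Svil-Mut, and 33829, 34139 and 39792 in WT (log2 fold change -0.27 in Svil-Mut against WT, adjusted p = 0.325). For Cox4i1 and Cox6c the Svil-Mut libraries lay below those of both other genotypes. Cox6c2 had 1931 to 2470 normalized counts; reads could be split between it and the near-identical Cox6c, so both values are uncertain to that extent. Cox5a (-0.19), Cox6b1 (-0.16), Cox7b (-0.20), Cox7c (-0.08) and Cox7a2l (-0.11) had log2 fold changes closer to 0 in Svil-Mut against WT.

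Among the tested complex IV genes the muscle isoform Cox6a2 changed least in Svil-Mut against WT, which rested on 1 library. It had 75835, 64742 and 69091 normalized counts in Svil-KO, 77769.7, 71239 and 92525 in Svil-Mut, and 77210.0, 79242 and 83846 in WT. The Svil-Mut libraries lay on both sides of WT, at a log2 fold change of -0.00037 ± 0.099 SE (adjusted p = 0.999), a sign that turned under 8 of the alternatives given in the closing section. Svil-Mut replicate 4, the lowest of the 9 libraries for 39 of the 45 members, was the highest for Cox6a2. Without that library the log2 fold change of Cox6a2 was -0.11, close to those of Cox7c (-0.08) and Cox7a2l (-0.11) with all libraries. All Svil-KO libraries lay below WT, at a log2 fold change of -0.20 ± 0.099 SE (limma unadjusted p = 0.0693, adjusted p = 0.997). Its general counterpart Cox6a1 had 1472, 1539 and 1484 in Svil-KO, 1299, 1244 and 1357 in Svil-Mut, and 1516, 1552 and 1687 in WT. The Svil-Mut libraries of Cox6a1 lay below those of both other genotypes (log2 fold change -0.29 against WT, adjusted p = 0.344).

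Per kilobase, Cox6a2 therefore made up 97.5% ± 0.25 of the pair in Svil-KO, 98.1% ± 0.17 in Svil-Mut and 97.7% ± 0.034 in WT (SD, n = 3 each). The ratio of Cox6a2 to Cox6a1 was 43.2, 35.3 and 39.1 in Svil-KO, 50.3, 48.1 and 57.3 in Svil-Mut, and 42.8, 42.9 and 41.7 in WT. All Svil-Mut ratios were higher than all others. The log2 ratio of the normalized counts (each + 1) was 5.94 ± 0.13 in Svil-Mut and 5.66 ± 0.021 in WT, a difference of 0.28 (exact 2-sided permutation p = 0.1, the smallest that 3 against 3 libraries allow, and 0.225 adjusted over 9 ratio tests). Between Svil-KO (5.54 ± 0.15) and Svil-Mut the difference was -0.40 (exact permutation p = 0.1, adjusted 0.225). Svil-KO and WT overlapped (difference -0.12, exact permutation p = 0.4, adjusted 0.675). The design could not pass 0.05 in these tests.

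The Cox7a pair did not follow the same order. Cox7a1, the muscle form, had 19298, 19489 and 18594 normalized counts in Svil-KO, 18049.6, 16516 and 11706 in Svil-Mut, and 17820.0, 19783 and 22307 in WT, with Svil-Mut replicate 4 far below the rest. Its log2 fold change was -0.39 ± 0.14 SE in Svil-Mut against WT (adjusted p = 0.405), and the 2 genotypes overlapped. Cox7a2, the general form, had 16064, 16205 and 15196 in Svil-KO, 15392, 14472 and 12893 in Svil-Mut, and 16307, 17332 and 18872 in WT. Both mutant genotypes lay below WT there, at a log2 fold change of -0.14 in Svil-KO (adjusted p = 0.997) and -0.30 in Svil-Mut (adjusted p = 0.311). The ratio of Cox7a1 to Cox7a2 per kilobase was 2.01, 2.02 and 2.05 in Svil-KO, 1.97, 1.91 and 1.52 in Svil-Mut, and 1.83, 1.91 and 1.98 in WT. Svil-KO ratios lay above both other genotypes, by 0.09 on the log2 scale against WT and 0.18 against Svil-Mut (exact 2-sided permutation p = 0.1 each, adjusted 0.225). Svil-Mut and WT overlapped (difference -0.09, exact permutation p = 0.6, adjusted 0.675), and without Svil-Mut replicate 4 this difference was 0.02 and the one between Svil-KO and Svil-Mut was 0.06.

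The third pair had overlapping values. Cox8b had 31638, 28774 and 28305 normalized counts in Svil-KO, 31162, 28418 and 26829 in Svil-Mut, and 30745, 31840.1 and 33993 in WT. Cox8a had 1673, 1845 and 1624 in Svil-KO, 1854, 1383 and 1472 in Svil-Mut, and 1649.5, 1946 and 1862 in WT. Their log2 fold changes in Svil-Mut against WT were -0.16 (adjusted p = 0.526) and -0.22 (adjusted p = 0.595). The ratio of Cox8b to Cox8a per kilobase was 26.5 ± 2.5 in Svil-KO, 28.3 ± 2.9 in Svil-Mut and 27.1 ± 1.9 in WT (SD, n = 3 each), with exact permutation p-values of 0.5 to 0.7 for the 3 pairs of genotypes and differences within the spread of the libraries.

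**Figure D3:**
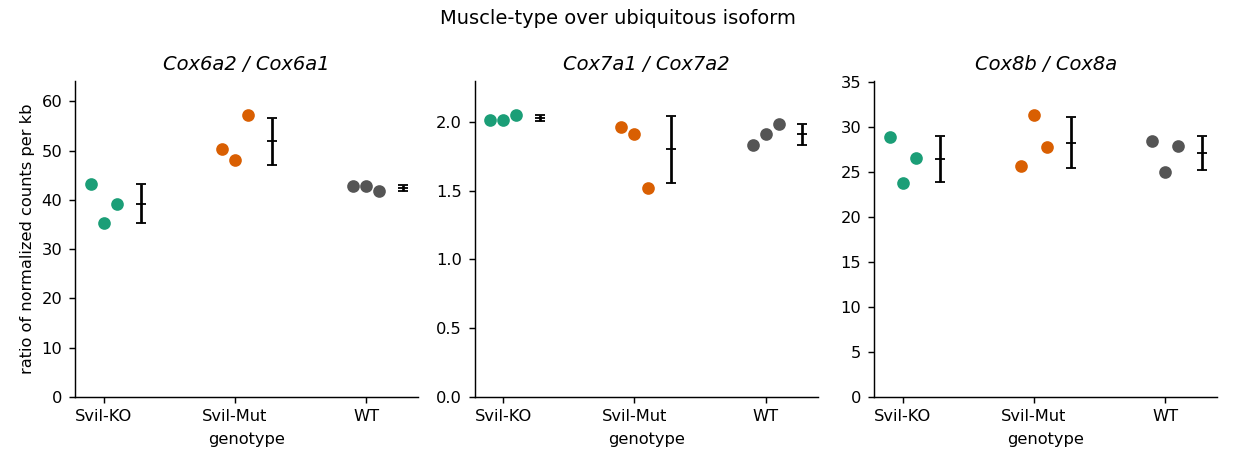
Ratio of the muscle-type to the general isoform (normalized counts per kilobase, axis from 0) for 3 pairs, with 1 point per library and the mean ± SD beside each genotype. The Svil-Mut ratios of Cox6a2 to Cox6a1, 48.1 to 57.3, lie above all Svil-KO and WT ratios, whereas those of Cox8b to Cox8a overlap in all genotypes.

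Cox4i2, a form of subunit 4 known from lung and from the mural cells of small vessels, was the member with the largest log2 fold changes apart from the near-floor genes. It had 91.3, 118 and 102 normalized counts in Svil-KO, 108, 88.8 and 86.1 in Svil-Mut, and 188, 133 and 167 in WT. All libraries of both mutant genotypes lay below all WT libraries, at a log2 fold change of -0.63 ± 0.24 SE in Svil-KO (limma unadjusted p = 0.0247, adjusted p = 0.997) and -0.77 ± 0.24 SE in Svil-Mut (unadjusted p = 0.00909, adjusted p = 0.349). The 2 comparisons share the WT libraries. Of the 8 smooth muscle and mural cell markers, none had an adjusted p under 0.05 in either comparison, while 7 were below 0 in Svil-KO against WT (median -0.12) and 5 in Svil-Mut against WT (median -0.18). Their summed level, most of it Des, which muscle fibres also express, was 180697 to 195069 in Svil-KO, 182929 to 206945 in Svil-Mut and 175022 to 195323 in WT. The pericyte marker Rgs5 had 6506 ± 176 normalized counts in Svil-KO, 5842 ± 630 in Svil-Mut and 6537 ± 137 in WT (SD, n = 3 each), and the mural channel gene Kcnj8 had 1338 ± 78.4, 1273 ± 231 and 1521 ± 263 in the same genotypes. Their part in the Cox4i2 values was not tested.

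All 17 ATP synthase genes had log2 fold changes below 0 in Svil-Mut against WT, from -0.29 (Atp5h, a stator subunit) to -0.05 (Atp5g2), with a median of -0.19. An unadjusted p under 0.05 was reached by 10 of them, and 7 had no overlap. Atp5d, the delta subunit of the central stalk, had 27355, 28457 and 29101 normalized counts in Svil-KO, 26388, 24199 and 22571 in Svil-Mut, and 28025, 28110.4 and 31118 in WT (log2 fold change -0.26 ± 0.076 SE in Svil-Mut against WT, adjusted p = 0.326). Atp5j2, the f subunit of the membrane part, had 22261, 21037 and 21226 in Svil-KO, 21509, 19626 and 17942 in Svil-Mut, and 22495, 22293 and 25190.1 in WT. Its log2 fold change against WT was -0.12 in Svil-KO (adjusted p = 0.997) and -0.25 in Svil-Mut (adjusted p = 0.365), and WT lay above both. Atp5k, the e subunit that joins 2 synthases, had 9778, 9750.5 and 9205 in Svil-KO, 9117, 9087 and 7644 in Svil-Mut, and 9572, 10047 and 11258 in WT (log2 fold change -0.26 in Svil-Mut against WT, adjusted p = 0.396). Atp5b, the most abundant, had 213861, 207573 and 217828 in Svil-KO, 201494, 185703 and 175412 in Svil-Mut, and 204255, 197446 and 211138 in WT. Its Svil-Mut and WT libraries overlapped (log2 fold change -0.13, adjusted p = 0.604), and those of Svil-KO lay above all of Svil-Mut.

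The 3 genes for subunit c, which forms the rotating ring, encode the same mature protein and differed in their values. Atp5g1 had 23360.4, 23300.1 and 23546 normalized counts in Svil-KO, 21588, 19877 and 19014 in Svil-Mut, and 23024, 22328 and 26052 in WT (log2 fold change -0.24 in Svil-Mut against WT, adjusted p = 0.351). Atp5g3 had 44103, 41277 and 45053 in Svil-KO, 40660.5, 36944 and 30523 in Svil-Mut, and 40627, 40457 and 47303 in WT (log2 fold change -0.25, adjusted p = 0.445). Atp5g2 had 2785 to 2911 in Svil-KO, 2721 to 2955 in Svil-Mut and 2907 to 3002 in WT, a log2 fold change of -0.05 in Svil-Mut against WT (adjusted p = 0.876). Per kilobase, Atp5g3 gave 57.1% ± 1.0 of the subunit c transcripts in Svil-KO, 55.4% ± 2.2 in Svil-Mut and 56.2% ± 0.56 in WT (SD, n = 3 each). The share of Atp5g2 was 6.02% ± 0.20 in Svil-KO, 7.19% ± 0.51 in Svil-Mut and 6.33% ± 0.44 in WT, and the lowest Svil-Mut library lay only just above the highest WT library.

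In Svil-KO against WT the members differed little. None of the 45 passed (0.0% of all genes did), 30 log2 fold changes were below 0 (49.4% of all genes were), and the median was -0.053. The exact sign of this median rests on WT replicate 4, without which it was 0.017. Cox4i2 was the single member with an unadjusted p under 0.05 and a lower level (1.75% of all genes), and neither it nor any other member reached this without WT replicate 1 or WT replicate 4. The count was 2 without Svil-Mut replicate 2 or Svil-Mut replicate 4, which enter the shared variance. Genes lower at that p numbered 226 of 15098 without WT replicate 1 and 221 of 15120 without WT replicate 4. They numbered 282 of 15109 without Svil-Mut replicate 2 and 313 of 15089 without Svil-Mut replicate 4. In 6 members all Svil-KO libraries lay below all WT libraries (5.45% of all genes), namely Cox4i2, Cox5b, Cox6a2, Cox7a2, Uqcr11 and Atp5j2. In none did they all lie above, as they did in 795 of the 15279 genes tested. Leaving out Svil-KO replicate 1 gave 11, and leaving out WT replicate 1 gave 13. Leaving out a library can only keep or raise such a count, and the matching share of all genes was not counted. EdgeR and DESeq2 called 0 members.

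Svil-KO values of the members varied with transcript length, a split added after the data had been seen. Among the 43 members that reached 100 normalized counts in at least 1 library, the 16 with a transcript of 800 bases or more had a median log2 fold change of 0.030 in Svil-KO against WT, 11 of them above 0. The 27 shorter ones had a median of -0.069, 3 of them above 0. Across these 43 genes, which share the libraries, Spearman's rho between length and log2 fold change was 0.54. Neither the split nor rho was computed over all genes, so whether this relation is particular to the members was not tested. In Svil-Mut against WT the medians were -0.21 for long and -0.21 for short members, and rho was -0.053. In Svil-KO against Svil-Mut they were 0.21 for long and 0.14 for short members, and rho was 0.42. With the trend of length and GC content over all genes removed, the members' median in Svil-KO against WT was 0.00037. Long members then had a median of 0.050 (13 of 16 above 0) and short ones -0.018 (18 of 27 below 0). After the same correction the median of all tested members in Svil-Mut against WT was -0.17.

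Svil-KO muscle had higher levels of most members than Svil-Mut muscle. None of the 45 passed (0.0458% of all genes did), 41 log2 fold changes were above 0 (51.4% of all genes), and the median was 0.16. An unadjusted p under 0.05 with a higher level in Svil-KO was reached by 20 members (5.51% of all genes), and 27 had no overlap with Svil-KO higher (7.55% of all genes). This comparison is also the test of whether the differences of the 2 genotypes from WT differ. The smallest adjusted p was that of Uqcrc1 (log2 fold change 0.36, adjusted p = 0.285), followed by Uqcrfs1 (0.32, adjusted p = 0.322), Cyc1 (0.33, adjusted p = 0.323) and Cox4i1 (0.27, adjusted p = 0.330). Cox5b (0.23), Atp5d (0.22) and Atp5g1 (0.22) had adjusted p-values of 0.381 to 0.408, and Cox6a2 had a log2 fold change of -0.20 (adjusted p = 0.529). EdgeR and DESeq2 called 0 members. The count of 20 was 8 without Svil-Mut replicate 4 or Svil-KO replicate 1, 11 without Svil-KO replicate 4, 13 with quantile normalization and 4 without the variance trend. Genes higher in Svil-KO at that p numbered 865 of 15089, 605 of 15131, 519 of 15093, 788 of 15279 and 660 of 15279 in the same order. In the main fit they numbered 842 of 15279.

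The libraries within a genotype differed by a common shift of the members. Relative to the WT mean of each gene, the median member stood at -0.01, -0.05 and -0.08 in Svil-KO replicates 1, 3 and 4. It stood at -0.11, -0.21 and -0.32 in Svil-Mut replicates 1, 2 and 4, and at -0.05, -0.05 and 0.11 in WT replicates 1, 3 and 4. In Svil-Mut replicate 4, 39 of the 45 members had their lowest value of all 9 libraries, and in WT replicate 4, 33 had their highest. The pooled SD of these library medians within genotypes was 0.083. Without Svil-Mut replicate 4 the members' median in Svil-Mut against WT was -0.15, and without WT replicate 4 it was -0.16.

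**Figure D4:**
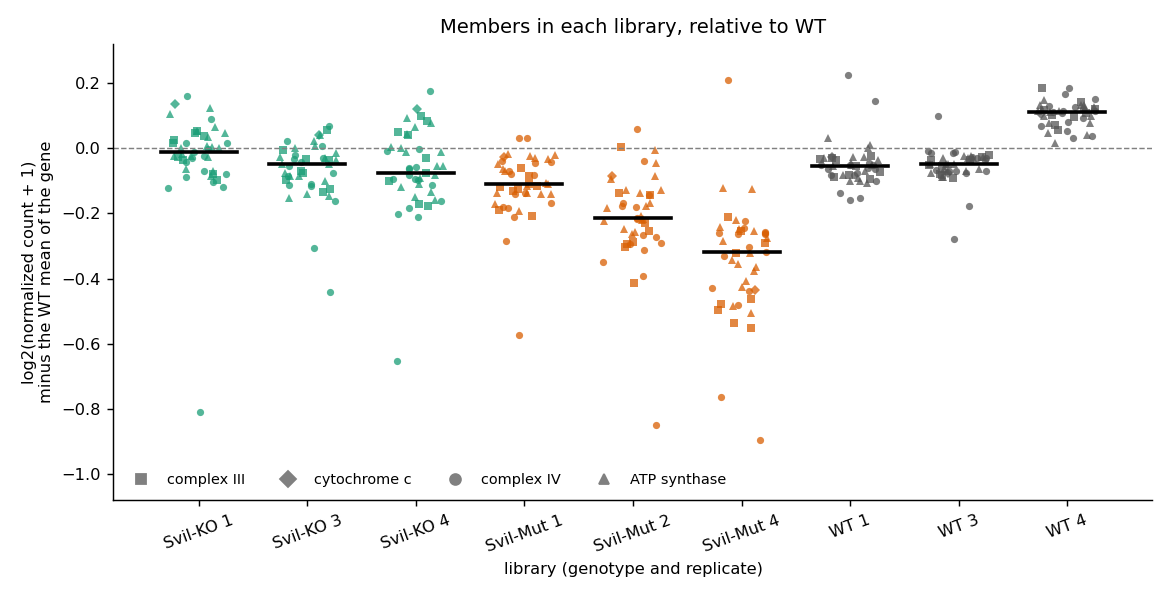
Log2(normalized count + 1) minus the WT mean of the gene, for each library and the 43 members that reached 100 normalized counts in at least 1 library, with symbols for the complexes and a bar at the median of all tested members. The medians of the Svil-Mut libraries, -0.11, -0.21 and -0.32, lie below those of the Svil-KO and WT libraries, and WT replicate 4 lies highest at 0.11.

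The mitochondrial genome encodes further subunits of the same complexes. All 6 (mt-Cytb, mt-Co1, mt-Co2, mt-Co3, mt-Atp6 and mt-Atp8) were below 0 in Svil-Mut against WT, with a median of -0.58, and 5 had an unadjusted p under 0.05; none passed over all genes. mt-Cytb, the core of complex III, had 458293, 403355 and 481631 normalized counts in Svil-KO, 364475, 335489 and 259099.9 in Svil-Mut, and 426483, 363584 and 473153 in WT. Its log2 fold change was -0.40 in Svil-Mut against WT (adjusted p = 0.379) and 0.50 in Svil-KO against Svil-Mut (adjusted p = 0.300). mt-Co1, the catalytic subunit of complex IV, had 337704, 319718 and 369785 in Svil-KO, 291693, 242920.2 and 190768 in Svil-Mut, and 331925, 249609.6 and 332060.2 in WT (log2 fold change -0.34 in Svil-Mut against WT, adjusted p = 0.495). mt-Co2 had a log2 fold change of -0.76 (adjusted p = 0.245) and mt-Co3 one of -1.20 (adjusted p = 0.266) in Svil-Mut against WT. Both, like mt-Atp6, were listed at no more than 1494 normalized counts in any library, far below mt-Co1. The mouse nuclear genome carries near-identical copies of parts of the mitochondrial genome, so the counting could have split or dropped their reads, and these levels are uncertain. mt-Atp8 was lower still, with 11.2, 16.2 and 8.52 normalized counts in Svil-Mut and 17.5, 29.3 and 110 in WT. It had the lowest log2 fold change of the 6 in Svil-Mut against WT, -1.65, and its WT libraries differed widely. In Svil-KO against WT the median of the 6 was -0.052, with mt-Co3 at -0.54 and mt-Atp6 at 0.40, and none had an unadjusted p under 0.05. That median was 0.029 without Svil-KO replicate 3 and 0.14 without WT replicate 4. In Svil-KO against Svil-Mut it was 0.61, with 5 of the 6 at that p.

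Other genes of the pathway were counted from lists, and none of their members passed in any of the 3 comparisons. Complex II, which feeds the same chain from succinate, had 4 of 4 genes below 0 in Svil-Mut against WT (median -0.19), 3 with an unadjusted p under 0.05, among them Sdhc (-0.21) and Sdhb (-0.25). In Svil-KO against WT its median was -0.01, with Sdhb at -0.04 and Sdha at 0.03, and in Svil-KO against Svil-Mut 0.19, with Sdha at 0.20 and Sdhc at 0.18. Assembly factors of complex III were below 0 in 5 of 6 cases in Svil-Mut against WT (median -0.21), with Uqcc1 at -0.24 (adjusted p = 0.407) and Bcs1l, which inserts the Rieske protein, at -0.22. Uqcc2 had the smallest p of this list in Svil-KO against WT (-0.20, adjusted p = 0.997), beside Ttc19 at 0.16 (median of the list -0.0041), and in Svil-KO against Svil-Mut the median was 0.24, where Uqcc1 had 0.28 and Uqcc2 -0.18. Of the 26 listed complex IV assembly factors 23 were tested, and 20 were below 0 in Svil-Mut against WT (median -0.13), 3 at an unadjusted p under 0.05, with Higd1a at -0.25 and Coa5 at -0.24. Their median was -0.08 in Svil-KO against WT (Coa6 -0.20, Cmc1 -0.20) and 0.06 in Svil-KO against Svil-Mut (Coa5 0.34, Sco1 0.42).

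The 4 assembly factors and inhibitors of ATP synthase had medians of 0.03 in Svil-KO against WT, -0.12 in Svil-Mut against WT and 0.12 in Svil-KO against Svil-Mut, with none at an unadjusted p under 0.05. Atpif1, the inhibitor that stops ATP hydrolysis, was at 528 ± 55.6 normalized counts in Svil-KO, 518 ± 25.8 in Svil-Mut and 601 ± 12.6 in WT (SD, n = 3 each). Slc25a3, which carries phosphate to the synthase, had 37321 ± 951 in Svil-KO, 29359 ± 4643 in Svil-Mut and 36529 ± 2460.1 in WT (log2 fold change -0.33 in Svil-Mut against WT, adjusted p = 0.361). Slc25a4, the ATP and ADP exchanger of muscle, had 256308 ± 3033, 230944 ± 27286 and 254059 ± 19100.3 in the same genotypes (log2 fold change -0.14, adjusted p = 0.660). Lrpprc, which stabilizes mitochondrial mRNAs, had a log2 fold change of 0.26 in Svil-KO and -0.04 in Svil-Mut against WT, and 0.30 in Svil-KO against Svil-Mut (adjusted p = 0.449).

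Markers of fibre and cell types were measured in the same libraries. Slow fibre markers summed to 79070 to 122895 normalized counts in Svil-KO, 39319 to 65718 in Svil-Mut and 83510 to 124853 in WT, and all 10 were below 0 in Svil-Mut against WT (median -1.19, 4 at an unadjusted p under 0.05, none passing). Without Svil-Mut replicate 2 this median was -0.60, with 9 of 10 below 0. In Svil-KO against WT 6 of the 10 were above 0 (median 0.53), and without Svil-KO replicate 1 the median was -0.13, with 3 of 10 above 0. Most of this sum was Mb, myoglobin, with 90032 ± 17876 in Svil-KO, 44998 ± 13299.6 in Svil-Mut and 92426 ± 16944 in WT (SD, n = 3 each). Fast fibre markers summed to 5608687 to 6189624 in Svil-KO, 6443191 to 6933422 in Svil-Mut and 5521916 to 5966632 in WT. In Svil-Mut against WT 8 of these 10 were above 0 (median 0.12), 2 of them at an unadjusted p under 0.05 (Actn3 0.42 and Atp2a1 0.23). The 2 below 0 were the myosins Myh2 (-1.84, adjusted p = 0.325), of fast oxidative fibres, and Myh1 (-0.73). Without Svil-Mut replicate 2 the median was 0.038, with 6 of 10 above 0. The slow fibre sum of Svil-Mut was lowest in replicate 2, while the members were lowest in replicate 4. Red blood cell markers summed to 7028 to 10980 in Svil-KO, 10671 to 53571 in Svil-Mut and 9117 to 13153 in WT, with the highest sum in Svil-Mut replicate 4 and 6 of 7 tested markers above 0 in Svil-Mut against WT. The part of fibre types and of blood in the members' values was not tested.

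**Figure D5:**
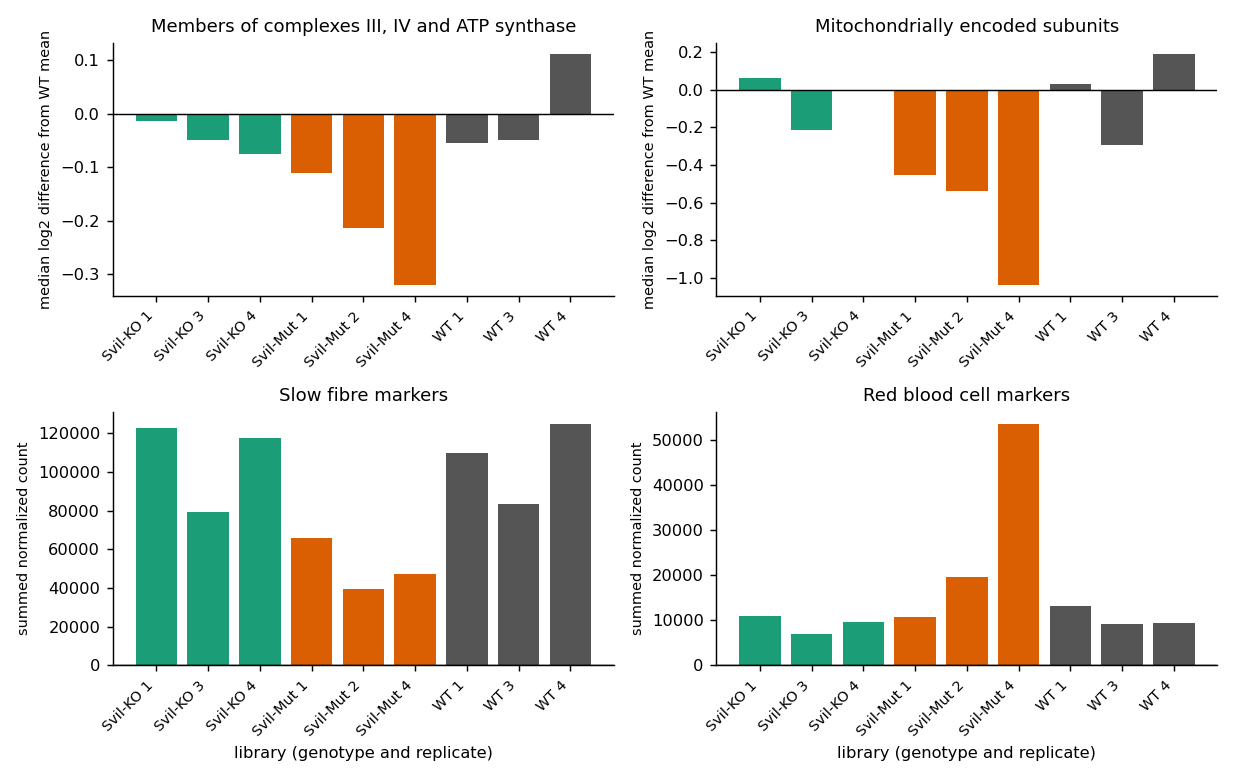
Median log2 difference from the WT mean (top) of the members and of the 6 mitochondrially encoded subunits, and summed normalized counts (bottom) of the slow fibre and red blood cell markers that were tested, 1 bar per library. In Svil-Mut the members and the mitochondrially encoded subunits are lowest in replicate 4, where the red blood cell sum is highest, and the slow fibre sum is lowest in replicate 2.

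Adipocyte markers summed to 8369 to 9608 in Svil-KO, 7016 to 10388 in Svil-Mut and 9555 to 11285 in WT, with 7 of 8 below 0 in Svil-KO and 6 of 8 in Svil-Mut, both against WT. Brown adipocyte markers summed to at most 221 in any library, and Ucp1, which defines that cell, was at 0 in all. Fibro-adipogenic markers summed to 45400 to 48063 in Svil-KO, 34181 to 48892 in Svil-Mut and 44322 to 68062 in WT, with 8 of 8 below 0 in Svil-Mut against WT. Endothelial markers summed to 7159 to 8742 in Svil-KO, 7160 to 8774 in Svil-Mut and 6994 to 9584 in WT, and macrophage markers to 1305 to 3002, 1293 to 3544 and 1253 to 1764 in the same genotypes. Transcripts of the mitochondrial genome took 6.23% ± 0.35 of counts in Svil-KO, 4.58% ± 0.58 in Svil-Mut and 5.98% ± 0.61 in WT (SD, n = 3 each), and the 10 most abundant genes 25.6% ± 1.1, 28.2% ± 0.58 and 25.2% ± 0.58. No marker passed over all genes in any of the 3 comparisons.

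The library kit does not mark strand, so reads of overlapping genes on opposite strands cannot be told apart. The longest such exon overlaps of members were those of Uqcrc2 with Pdzd9 (504 bases), Atp5j with Gabpa (397 bases) and Atp5pb with Wdr77 (337 bases), and each partner had a mean under 1300 normalized counts, against 18574 for Uqcrc2, 30967 for Atp5j and 29731 for Atp5pb. Among the dropped pseudogene rows, Atp5pb-ps reached 1520 and Atp5k-ps2 1214 normalized counts, and reads could be split between them and Atp5pb or Atp5k.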

How the data were processed

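RNA from 9 left TA muscles was primed with oligo(dT), amplified as full-length cDNA and made into libraries by tagmentation, per the labels' protocols. Per the submitters' processing notes the authors used HISAT2, featureCounts and DESeq2 on mm10; no source used here gives their versions, settings or annotation. What the authors deposited is a signal for each gene and library, namely its read count over a library size factor. Every nonzero value (100%) came out whole, within 0.001, when divided by the step of its library, so whole reads were recovered, 36234428 to 48762188 per library. Without molecular identifiers, depth covers counting error only. Size factors correct neither length nor GC content, and would hide a shift shared by most genes.

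Genotypes were read from the genotype label, replicate numbers from the sample titles; all libraries carry batch label 1. Tests were made with limma, fitted with a variance trend to log2(normalized count + 1) in all 9 libraries together, over 15279 genes with at least 3 libraries at 10 or more. Fold changes are on this scale, which understates low genes. Calls used a Benjamini-Hochberg adjusted p under 0.05 over all genes tested. Over all genes limma called 0 genes in Svil-KO against WT, 6 in Svil-Mut against WT and 7 in Svil-KO against Svil-Mut. On recovered reads edgeR called 0, 6 and 7, and DESeq2 called 4, 176 and 216. Isoform ratios used exact permutation tests, adjusted over 9.

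The members, gene lists and markers were chosen with earlier results of these data known. Named members were those of isoform pairs and subunit c, Cycs, in each complex the 3 with the smallest p in Svil-Mut against WT and 2 in each other comparison, the most abundant, and the one farthest above 0. Cyc1, Uqcrb, Cox7c and other members given by a single value, Mb, Myh1, Myh2, Actn3, Atp2a1, Rgs5 and Kcnj8 were named after their values were seen.

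Lengths (shortest best-supported principal transcript) and positions came from GENCODE M21 on GRCm38, which need not be the authors' annotation, with 97.2% of tested genes and all members matched; Atp5md and Atp5pb were matched through older symbols. Only the limma steps were checked on simulated counts, with planted changes larger than the members' median changes. EdgeR, DESeq2 and the permutation tests were not checked in this way. Alternatives were pseudocounts of 0.5 and 10, no filter, a mean of at least 50, equal totals, quantile normalization, no variance trend, robust variance, library weights, only 2 genotypes in the fit, a replicate block, edgeR, DESeq2, a length and GC trend removed, an adjusted p of 0.10 and leaving out each library; for the gene lists the last was chosen after seeing the data. Software was Python 3.11.15 with matplotlib 3.10.9, and R 4.3.3 with DESeq2 1.42.0, edgeR 4.0.16 and limma 3.58.1.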

Additional observations from a re-analysis of the deposited data

How the results depend on the processing

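No member was called in any comparison under the alternatives run, except that DESeq2 called 3 in Svil-Mut against WT. In that comparison DESeq2 called 176 of the 15264 genes it tested. The median of the members in Svil-Mut against WT ranged from -0.26 to -0.15 when a library was left out, that of Svil-KO against Svil-Mut from 0.11 to 0.22 and that of Svil-KO against WT from -0.077 to 0.017. Counts of members at an unadjusted p under 0.05 moved more. In Svil-Mut against WT the count of 27 was 12 without the variance trend and 11 to 34 when a library was left out. Over all genes, those lower at that p numbered 813 in the main fit, 674 without the trend and 567 to 930 leaving out a library. The genes tested numbered 15279, or 15071 to 15131 when a library was left out. In Svil-KO against Svil-Mut the count of 20 was 13 with quantile normalization, 4 without the variance trend and 8 to 25 when a library was left out. Over all genes, those higher at that p numbered 842, 788, 660 and 519 to 988 in the same order. In Svil-KO against WT the count of 1 was 2 with equal totals, library weights or only 2 genotypes in the fit, 4 with quantile normalization and 0 to 2 when a library was left out. Over all genes, those lower at that p numbered 268, 318, 341, 326, 301 and 212 to 313 in the same order. Members without overlap numbered 23 to 36 in Svil-Mut against WT, 27 to 34 in Svil-KO against Svil-Mut and 6 to 13 in Svil-KO against WT when a library was left out. Leaving out a library can only keep or raise a count without overlap, so these ranges are no check on the counts with all libraries. The cause of the other shifts was not tested.

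Among the 27 members named by rule, signs turned for 3 in Svil-Mut against WT. The signs of the other members were not followed one by one. The log2 fold change of Cox6a2 was 0.15 with quantile normalization, 0.0067 by edgeR, 0.0066 by DESeq2, 0.035 with the length and GC trend removed, and -0.11 to 0.084 when a library was left out. That of Atp5g2 was 0.015 with the length and GC trend removed, and that of Cox7b2 -0.94 to 0.053 when a library was left out; the cause was not tested.

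Deviations of same-numbered libraries correlated at -0.056 to 0.044 and those of other pairs at -0.039 to 0.061. Between Svil-KO and WT, same-numbered libraries correlated at 0.026 to 0.044 and the others at -0.035 to -0.0023. Same-numbered libraries correlated at -0.023 and -0.017 between Svil-KO and Svil-Mut, and at 0.0071 and -0.056 between Svil-Mut and WT. These small correlations do not decide whether the replicate numbers pair the samples. With the replicate block, where Svil-Mut replicate 2 stands alone, the members' median was -0.053 in Svil-KO against WT, -0.25 in Svil-Mut against WT and 0.20 in Svil-KO against Svil-Mut, and 0 members were called. Under the same block the log2 fold change in Svil-Mut against WT was 0.053 for Cox6a2 and 0.092 for Cox7b2. The log2 ratio of Cox8b to Cox8a, paired by number, differed by -0.076 in Svil-Mut against WT and 0.053 in Svil-KO against Svil-Mut, against 0.059 and -0.097 unpaired.

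Read counts were lowest for Cox6b2, Cox7b2 and Cox8c, at no more than 20 reads per library, and then for Cox4i2, at 83 to 172 reads per library.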
